A study of Mus musculus with 21 samples.

Results

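The 76 genes described here encode the proteins of the mitochondrial ribosome, and were chosen by symbol: Mrpl or Mrps followed by a number, in 76 of the 23827 rows of the deposited tables. No symbol was repeated, and no measured value was used in the choice. 49 of the genes encode proteins of the large subunit and 26 proteins of the small subunit, and Mrps36 was put in neither, since its protein is better known as part of the 2-oxoglutarate dehydrogenase complex. Mitochondria keep a ribosome of their own, which makes the few proteins encoded by mitochondrial DNA, all of them core parts of the respiratory chain and of ATP synthase. Its RNA is made inside the organelle, but all of its proteins are encoded in the nucleus, translated on cytosolic ribosomes and imported. Some of these proteins descend from bacterial ribosomal proteins, and others are found only in mitochondria. Inherited defects in several of these genes impair respiration and are known to affect brain, heart and kidney.

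RNA was sequenced from mouse embryos at embryonic day 14.5 (E14.5) in 21 libraries of 7 groups with 3 replicates each. All embryos carried 1 copy of Gt(ROSA)26Sor-mCherry-Rpl10a, in which the CAGGS promoter drives an mCherry-tagged Rpl10a, a protein of the cytosolic large ribosomal subunit, once Cre has removed a stop cassette. With Sox2Cre+/-, active in the whole embryo proper, total RNA (the transcriptome) and RNA pulled down with the tagged ribosomes (the translatome) were taken from forebrain and from kidney. Ribosome-bound RNA was also taken from endothelial cells of both organs with Cdh5CreERT2+/- after tamoxifen by oral gavage to the mother (brain EC and kidney EC), and from the forebrain lineage of Emx1Cre+/- (Emx1-lineage). The forebrain samples included part of the diencephalon, the tissue of a sample came from 1 to 2 embryos, and the allele came from 1 targeted clone of embryonic stem cells. The labels of a group therefore stand for the cells in which Cre was active and the promoter drove the tag.

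Between 21760652 and 79231692 reads were counted per library. The marker genes of the targeted cells went with the labels. The summed RPKM (reads per kilobase of mRNA, scaled to the size of the library) of 5 endothelial markers was 1320 to 1380 in brain EC against 62.8 to 74.7 in the brain translatome, and 1210 to 1330 in kidney EC against 194 to 205 in the kidney translatome. Neural markers were still at 295 to 395 in brain EC, against 1670 to 1710 in the brain translatome, and markers of the dorsal telencephalon were at 388 to 392 in the Emx1-lineage against 186 to 195. Red blood cell markers were at 183 to 427 in the total RNA of brain and 351 to 662 in that of kidney, against 97.6 to 191 and 91.7 to 172 in the translatomes. Kidney markers were still at 59.6 to 76.8 in kidney EC, against 331 to 371 in the kidney translatome. Pericyte markers overlapped, at 80.7 to 93.0 in kidney EC and 84.6 to 99.0 in the kidney translatome. The part of these other cells in the results below was not tested. Brain EC, kidney EC and Emx1-lineage libraries were each sequenced in a lane of their own, so for them lane and group cannot be told apart.

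Mitochondrial ribosomal protein mRNAs were present at moderate levels in every group. Averaged over the 21 libraries, RPKM ranged from 0.60 for Mrpl23 to 140.45 for Mrpl52 with a median of 34.0, and 71 of the 76 genes were at 10 or more. The 12676 other mRNAs with a mean RPKM of at least 1 had a median of 14.0. The mRNAs are short, with lengths (from reads and RPKM) of 407 bases for Mrps21 to 6712 for Mrpl17 and a median of 1047.5, against 2856 for the other mRNAs. The members' median RPKM was above that of the other mRNAs in 34 of 35 pairs of length class and group. In the class under 700 bases, for example, it was 76.2 against 39.3 in the brain translatome, and the exception was the class of 2000 bases and over in the brain transcriptome (10.5 against 12.8). Mrpl52, Mrpl20 and Mrpl13, all of the large subunit, had the highest mean levels and were the only members above 100. Mrpl23, Mrps36 and Mrpl35 had the lowest, and Mrpl23 had 284 reads over all libraries. Mrpl23, Mrps36 and Mrpl48 have annotated processed pseudogenes, so their counts, and the low values of the first pair, are uncertain.

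The share of all counted reads that fell on the 76 genes was lower in the total RNA of each organ than in the organ's other libraries. It was 0.204% ± 0.010 (SD, n = 3) in the brain transcriptome and 0.353% ± 0.012 in the brain translatome, 0.287% ± 0.006 in the kidney transcriptome and 0.402% ± 0.014 in the kidney translatome. Among the cell type libraries it was 0.273% ± 0.004 in brain EC, 0.346% ± 0.020 in kidney EC and 0.348% ± 0.006 in the Emx1-lineage. The translatome libraries lay above all transcriptome libraries of the same organ, brain EC lay between the organ's transcriptome and translatome, and the Emx1-lineage overlapped the brain translatome. Such shares are relative to all other RNA in a library.

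**Figure D1:**
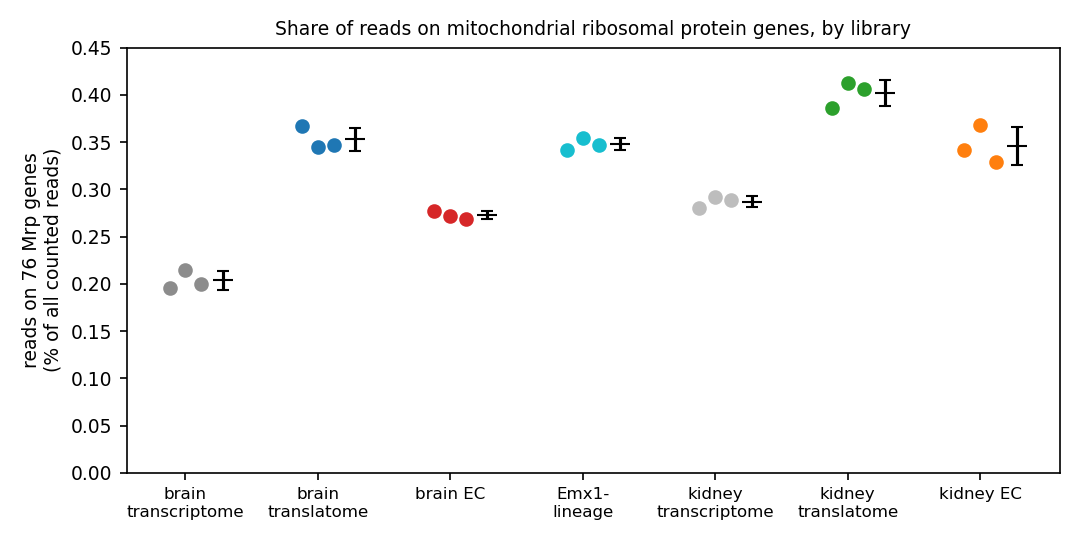
Share of counted reads on the 76 mitochondrial ribosomal protein genes (percent, y axis) in each of the 21 libraries (points), with the mean and SD of the 3 replicates per group. The brain transcriptome is lowest (0.196% to 0.215%) and the kidney translatome highest (0.386% to 0.413%).

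To compare single genes between groups, RPKM was therefore divided by the scaling factor that edgeR's TMM method gave each library in a fit of all 21 (0.82 to 0.825 in brain EC, 1.134 to 1.178 in the kidney transcriptome and translatome). This is called scaled RPKM below. The log2 fold changes come from a fit of each comparison's own libraries with its own factors, so they can differ from the ratio of the scaled values beside them. On this scale the members' group means differed by a median of 2.17-fold between the lowest and the highest group, from 1.37-fold for Mrpl19 to 4.1-fold for Mrpl54. 47 of the 76 differed by more than 2-fold and 8 by more than 3-fold. The brain transcriptome was the lowest of the 7 groups for 59 members and the kidney transcriptome for 11. Kidney EC was the highest for 31, the Emx1-lineage for 19 and the brain translatome for 13. The median coefficient of variation between replicates was 2.94% to 5.76% by group, so a 2-fold range is far outside replicate spread for a typical member. The members also stood closer together in total RNA: the ratio of their 90th to their 10th percentile was 5.14 in the brain transcriptome and 3.99 in the kidney transcriptome, and 6.24 to 6.99 in the other 5 groups.

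The first question was whether these mRNAs are bound to ribosomes in proportion to their amount. In brain, 61 of 76 were higher in the translatome than in the transcriptome at an adjusted p under 0.001 (edgeR quasi-likelihood test) and 0 were lower, where 18.6% of all 19446 rows tested were called higher and 18.5% lower. The median log2 fold change was 0.83 (quartiles 0.52 and 1.1) against -0.01 over all rows, and it was above 0 for 74 members. At an unadjusted p under 0.05, 1 member was lower by edgeR, and DESeq2 called 0 lower at the same adjusted threshold. In scaled RPKM, all translatome libraries lay above all transcriptome libraries for 70 members and below for 1, against 28.8% and 32.2% of all rows. By role, 41 of 49 large subunit and 19 of 26 small subunit genes were higher, with medians of 0.81 and 0.86. Of proteins with a bacterial counterpart 37 of 47 were higher (median 0.87), and of those without 23 of 28 (median 0.80). The roles were not tested against each other.

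Mrps21, the counterpart of a bacterial small subunit protein, had scaled RPKM of 41.6, 41.4 and 43.1 in the 3 brain transcriptome libraries and of 144, 116 and 125 in the translatome. The groups were far apart, and the log2 fold change was 1.64 (SE 0.08, edgeR adjusted p = 1.3e-09), or 3.12-fold. Mrpl20, a large subunit protein with a bacterial counterpart, was at 51.6, 55.1 and 52.6 in the transcriptome, and its translatome values ran from 135 to 158. Its libraries did not overlap either (log2 fold change 1.49, SE 0.07, adjusted p = 3.9e-10). Mrpl52, a large subunit protein found only in mitochondria and the most abundant member, was at 83.4, 90.4 and 89.6 against 228, 217 and 231, again without overlap (log2 fold change 1.39, SE 0.06, adjusted p = 2.5e-10). Mrps36 had the largest fold change (1.71, SE 0.18, adjusted p = 1.6e-06) but from low levels, 0.977 to 1.29 in total RNA and 3.32 to 3.73 in the translatome. Mrpl15, a large subunit protein with a bacterial counterpart, was at 10.8, 11.6 and 10.1 against 18.0, 17.0 and 18.1, a smaller gap with no overlap (log2 fold change 0.66, SE 0.07, adjusted p = 1e-06). At the other end stood Mrps27, a small subunit protein of the pentatricopeptide repeat family. It was at 14.1, 15.2 and 14.7 in the transcriptome and 13.0, 13.2 and 11.7 in the translatome, the only member whose translatome libraries all lay below, and it did not pass the test (log2 fold change -0.18, SE 0.08, adjusted p = 0.057).

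In kidney 48 of 76 members were higher in the translatome and 0 lower, where 14.9% of 19336 rows were higher and 15.8% lower. The median log2 fold change was 0.51 (quartiles 0.16 and 0.78) against -0.03 over all rows, with 67 members above 0. At an unadjusted p under 0.05, 6 members were lower by edgeR, and DESeq2 called 1 lower. Translatome libraries lay above all transcriptome libraries for 60 members and below for 6 (26.9% and 29.6% of all rows). By role, 30 of 49 large subunit and 18 of 26 small subunit genes were higher (medians 0.52 and 0.49). Same-numbered transcriptome and translatome libraries came from the same tissue sample. With the replicate number as a block, 54 members were higher and 5 lower in kidney: Mrps5 (-0.34), Mrps22 (-0.32), Mrpl38 (-0.24), Mrps27 (-0.23) and Mrpl19 (-0.21), with adjusted p from 8.9e-09 to 3.3e-05. Over all rows, higher calls rose from 2880 to 4636 and lower calls from 3049 to 4860 with the block. In that fit edgeR found no spread of dispersion between genes beyond its trend and set each gene to the trend, so its p-values rest on the trend alone. In brain the block gave 67 higher and 0 lower (4499 and 4433 over all rows).

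Mrps21 was at 48.0, 50.6 and 44.2 in the kidney transcriptome and 112, 123 and 111 in the translatome, with no overlap (log2 fold change 1.28, SE 0.07, adjusted p = 2.2e-07). Mrpl33, a very small large subunit protein with a bacterial counterpart, was at 48.0, 48.6 and 50.5 against 118, 120 and 114, a gap of the same size (log2 fold change 1.26, SE 0.06, adjusted p = 6.8e-08). In brain Mrpl33 was at 39.4, 49.7 and 42.5 against 121, 112 and 117 (log2 fold change 1.44, SE 0.09). 37.0% of its exon bases lie in another annotated transcript on the same strand, Gm43809. Mrpl54, found only in mitochondrial large subunits, was at 54.5, 57.4 and 55.8 against 116, 117 and 116, also apart (log2 fold change 1.06, SE 0.05, adjusted p = 6.7e-08). Mrpl15 was at 14.2, 15.6 and 15.1 against 15.0, 17.3 and 17.1, so that its groups overlapped (log2 fold change 0.09, SE 0.06, adjusted p = 0.29). Where transcriptome and translatome libraries shared a lane, the direction was the same without a test: against the brain transcriptome library of their lane, the 3 brain translatome libraries gave a median log2 ratio of 0.87, above 0 for 74 of 76 members. The kidney translatome library that shared a lane with the 3 kidney transcriptome libraries gave 0.54, above 0 for 65.

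The reading frames of Mrps21 and Mrpl33 are shown because both genes were among the members with the largest rise in kidney and have some of the shortest mRNAs of the set (407 and 466 bases). The transcript model of Mrps21 (NM_078479) has 2 exons at chr3:95862654-95870619 on the minus strand, and that of Mrpl33 (NM_025796) has 4 exons at chr5:31613939-31622644 on the plus strand. Coordinates are of GRCm38 with the GENCODE vM21 annotation, and the capitals mark the start and stop codons of frames of 88 and 66 codons, the stop included.
Mrps21: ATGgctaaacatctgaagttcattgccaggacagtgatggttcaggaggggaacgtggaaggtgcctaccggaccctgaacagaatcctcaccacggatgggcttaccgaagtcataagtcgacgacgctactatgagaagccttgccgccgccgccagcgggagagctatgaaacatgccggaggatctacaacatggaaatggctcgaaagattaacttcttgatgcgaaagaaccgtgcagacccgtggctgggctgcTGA
Mrpl33: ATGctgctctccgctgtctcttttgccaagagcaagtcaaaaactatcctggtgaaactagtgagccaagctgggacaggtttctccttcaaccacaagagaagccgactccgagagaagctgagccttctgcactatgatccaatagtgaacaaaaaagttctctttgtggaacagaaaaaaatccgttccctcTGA

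Short mRNAs were higher in the translatomes throughout, so the members were set beside other mRNAs of like length (75 members and 12276 other mRNAs with a mean RPKM of at least 1 in the brain comparison). Within the set the brain log2 fold change fell with length (Pearson r across genes = -0.58 with log10 length over 75 members, -0.49 over the other mRNAs). In kidney r was -0.50 over the 75 members and -0.32 over 12266 other mRNAs. Genes of 1 fit share libraries and are not independent, so these values are descriptions. In brain the members' median was above that of the other mRNAs in each of the 5 length classes: 1.30 against 1.14 under 700 bases (15 members), 1.06 against 0.88 from 700 to 1000 (17), 0.80 against 0.60 from 1000 to 1400 (17), 0.50 against 0.30 from 1400 to 2000 (16) and 0.49 against -0.12 at 2000 and over (10). Relative to the median of its class a member was 0.19 higher on the log2 scale (median over 75, 56 above and 19 below). 81.3% of these members were called higher, against 57.3% of other mRNAs weighted to the members' lengths. In kidney the excess was smaller, 0.09 (46 above and 29 below), with 64.0% called higher against 39.8%. Taking off the class median thus moved the members' median from 0.83 to 0.19 in brain and from 0.51 to 0.09 in kidney.

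**Figure D2:**
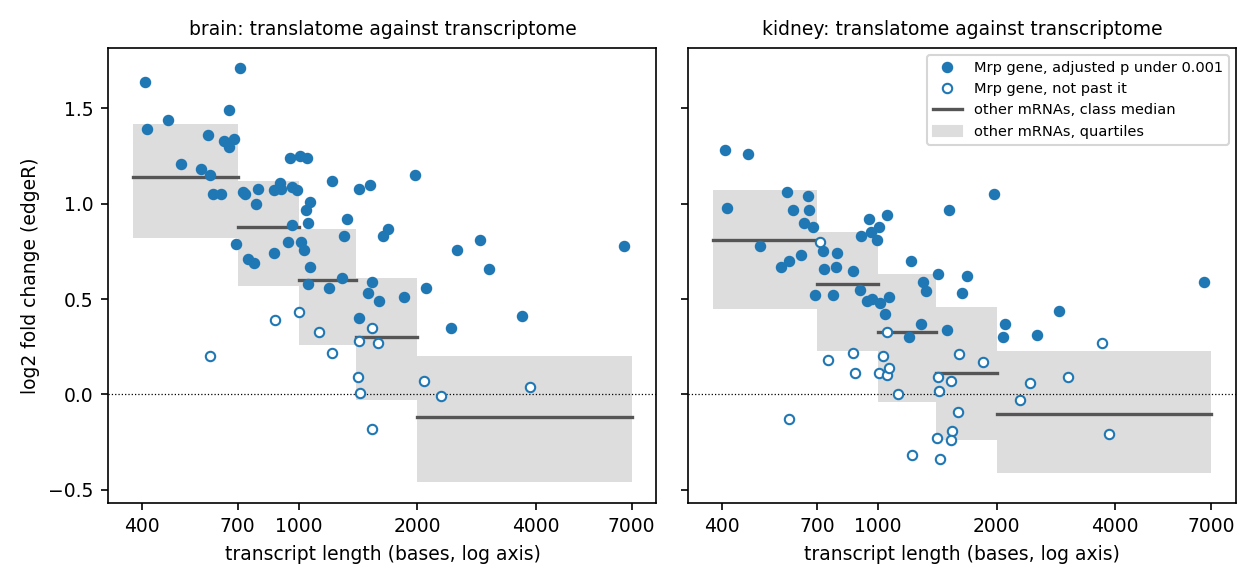
Log2 fold change of translatome over transcriptome (y axis) against mRNA length in bases (x axis, log scale) for members in brain (left) and kidney (right), with the median (line) and quartiles (band) of other mRNAs in each length class. Most members lie above the line of their class in brain (56 of 75) and in kidney (46 of 75).

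Length did not order all members. Mrpl17, the counterpart of a bacterial large subunit protein, has the longest mRNA (6712 bases, with 531 coding bases in its model, at chr7:105803206-105811099 on the minus strand). It was nevertheless higher in both translatomes: 8.22, 8.29 and 6.71 in the brain transcriptome against 13.7, 13.9 and 11.5 in the translatome, and 12.0, 12.3 and 12.1 against 18.9, 18.0 and 17.8 in kidney. The groups were apart in both organs (log2 fold changes 0.78, SE 0.09, adjusted p = 2.6e-06, and 0.59, SE 0.04, adjusted p = 7.6e-07). All 10 members of 2000 bases and over were above the median of their class in brain and 9 of 10 in kidney. This class has no upper bound, and its members other than Mrpl17 were of 2077 to 3855 bases. The upper quartile of length over all other mRNAs was 4268 bases. The class median thus also covers mRNAs longer than most of these members, and the comparison is not one of like length. A narrower length window is given for brain at the end.

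The next question was whether the translatome to transcriptome ratio differed between the organs. The interaction (kidney minus brain) was negative for 75 of 76 members, with a median of -0.31 against 0.00 over all rows, and 7 members were called lower and 0 higher (2.35% and 4.12% of 20108 rows). At an unadjusted p under 0.05, edgeR had 1 member higher, and DESeq2 called 0 higher and 23 lower. Over all rows DESeq2 called 1562 higher and 1107 lower, where edgeR called 829 and 472. Mrps2, a small subunit protein, was the exception, with a difference of 0.25 that was not called (adjusted p = 0.017). The 7 were Mrpl40 (-0.56, SE 0.10, edgeR adjusted p = 0.00064), Mrpl15 (-0.55, SE 0.09, 0.00045), Mrps34 (-0.54, SE 0.10, 0.00098), Mrps22 (-0.52, SE 0.09, 0.00086), Mrpl3 (-0.50, SE 0.08, 0.00024), Mrpl28 (-0.48, SE 0.08, 0.0006) and Mrpl34 (-0.41, SE 0.07, 0.00093). They belong to both subunits and include proteins with a bacterial counterpart (Mrpl15, Mrpl3, Mrpl28, Mrpl34) and without (Mrpl40, Mrps34, Mrps22). Mapk8ip3 on the other strand overlaps 62.7% of the exon bases of Mrps34, and the libraries keep no strand. The part of Mapk8ip3 reads in the Mrps34 values was not tested. Mrpl40 shows the pattern: it was at 18.7, 20.8 and 19.4 in the brain transcriptome against 35.9, 36.5 and 35.5 in the translatome, and at 28.5, 28.5 and 28 against 32.8, 35.1 and 38.7 in kidney. In both organs the translatome was above the transcriptome without overlap, by a wider gap in brain. Other mRNAs of like length also had a lower ratio in kidney, and relative to them the members' median difference was -0.10 (57 of 75 below). With the replicate block 31 members were lower, the 7 among them, while lower calls over all rows rose from 472 to 1467. Without single libraries the count was 0 (brain transcriptome 1 or 3) or 1 (brain translatome 1, kidney transcriptome 2 or 3, kidney translatome 1). It was 2 without brain translatome 3, kidney transcriptome 1 or kidney translatome 2, and 3 without brain translatome 2. It was 4 without brain transcriptome 2 and 5 without kidney translatome 3. Not all of these were of the 7: without brain translatome 2 it was 2 of the 3, and without brain translatome 3 it was 1 of the 2.

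**Figure D3:**
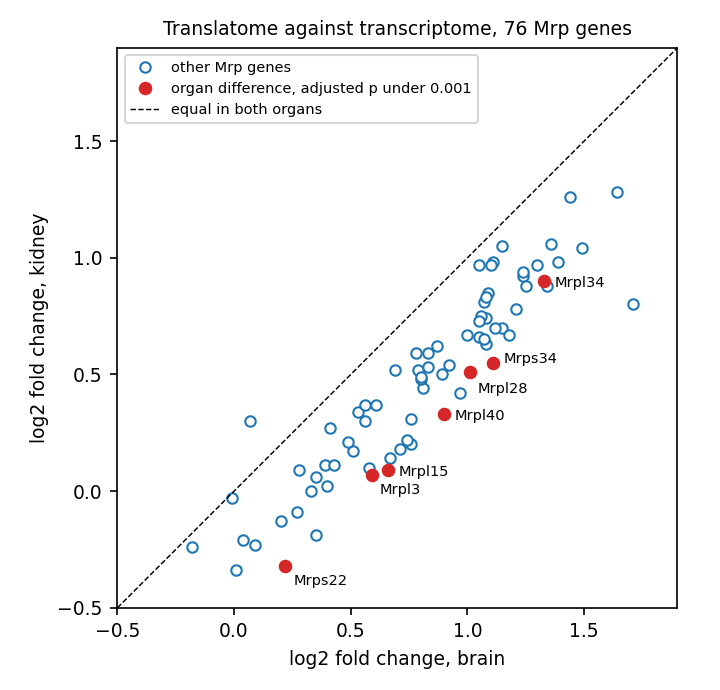
Log2 fold change of translatome over transcriptome in kidney (y axis) against brain (x axis), 1 point per member, with the 7 members called in the interaction in red and a line of equal change. 75 of the 76 points lie below the line.

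Other genes of mitochondrial translation changed in both directions. Of 6 mitochondrial ribosome proteins with other names, 4 were higher and 1 lower in the brain translatome (median 0.71) and 3 higher and 2 lower in kidney (median 0.46). Chchd1, a small subunit protein, had log2 fold changes of 1.47 (SE 0.07, adjusted p = 6.7e-10) and 1.24 (SE 0.08, adjusted p = 5.3e-07), and Aurkaip1, also of the small subunit, of 1.09 and 0.79. Of 15 mitochondrial translation factors, 4 were higher and 3 lower in brain and 1 higher and 4 lower in kidney (medians -0.11 and -0.29). Guf1, an elongation factor, fell by 1.79 (adjusted p = 1e-10) in brain and by 1.1 (adjusted p = 6.8e-08) in kidney on the log2 scale. Gatc, a subunit of the glutaminyl-tRNA amidotransferase, rose by 0.76 and 0.71. Lrpprc, which stabilises mitochondrial mRNAs, fell by 0.49 in brain and by 0.72 in kidney. Of 21 assembly factors, 5 were higher and 3 lower in brain and 3 and 3 in kidney (medians 0.11 and -0.06). Malsu1, which holds back subunit joining, rose by 1.23 and 0.92, and Mettl17, a factor of small subunit assembly, fell by 1.13 and by 1.12. Of 17 mitochondrial aminoacyl-tRNA synthetases, whose mRNAs are long (median 3062 bases), 2 were higher and 5 lower in brain and 0 and 5 in kidney (medians -0.24 and -0.33). Lars2 rose by 1.53 in brain, and its value of 0.75 in kidney was not called (adjusted p = 0.0023), while Aars2 fell by 1.01 and by 0.83 and Hars2 by 0.70 and by 0.68. Lars2 stood apart in level and spread, at a mean RPKM of 65.86 in the brain transcriptome and 158.09 (SD 43.21) in the kidney transcriptome. The next highest group mean among the synthetases was 27.63, of Iars2 in the kidney transcriptome. The source of the Lars2 reads was not tested.

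Genes of 3 other complexes give a scale for these values. Oxidative phosphorylation subunits, encoded in the nucleus like the mitochondrial ribosome, were higher in 69 of 81 cases in brain and 57 of 82 in kidney, with 0 and 7 lower (medians 1.23 and 0.74), and lay 0.24 and 0.09 above mRNAs of like length. Cytosolic ribosomal proteins were higher in 49 of 82 cases in brain and 29 of 82 in kidney, with 3 and 4 lower (medians 0.78 and 0.28), and lay 0.18 and 0.31 below (differences of -0.18 and -0.31). Their reads can be shared with processed copies. Proteasome subunits were higher in 20 of 39 cases in brain and 2 of 39 in kidney, with 3 and 11 lower (medians 0.38 and -0.04), at -0.19 and -0.37 relative to mRNAs of like length. The mitochondrial ribosomal proteins thus stood between the respiratory chain and the cytosolic ribosome in the excess over mRNAs of like length in brain (0.24, 0.19 and -0.18), and beside the respiratory chain in kidney (0.09 for both). No test of these differences between lists was made.

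In total RNA, 34 members were higher in kidney than in brain and 0 lower, where 26.3% of 19841 rows were higher and 27.2% lower. Their median was 0.31 on the log2 scale (quartiles 0.17 and 0.51) against 0.02 over all rows, above 0 for 63 members, and kidney libraries lay above all brain libraries for 55 members and below for 7 (36.3% and 36.9% of all rows). At an unadjusted p under 0.05, 5 were lower by edgeR, and DESeq2 called 1. Scaling mattered to the size. With library totals in place of TMM factors the median was 0.49 and 52 members were higher, but the median of all mRNAs then moved to 0.18. The members stood 0.31 above that median. This difference cannot depend on the scaling, since library factors move all genes alike. Relative to mRNAs of like length the members were 0.23 higher in kidney (60 of 75 above), and 23 of 49 large subunit and 11 of 26 small subunit genes were higher. Mrpl54 was at 27.3, 30.0 and 28 in brain and 54.5, 57.4 and 55.8 in kidney, with no overlap (log2 fold change 0.98, SE 0.07, adjusted p = 2.2e-07). Mrps27 was at 14.1, 15.2 and 14.7 in brain and 25.2, 25.9 and 26.2 in kidney, also apart (0.82, SE 0.06, adjusted p = 5.7e-07). Mrpl12, the protein of the flexible stalk of the large subunit, was at 37.8, 40.2 and 39.0 against 63.6, 69.9 and 60.4 (0.74, SE 0.06, adjusted p = 1.3e-06), and Mrpl15 at 10.8, 11.6 and 10.1 against 14.2, 15.6 and 15.1 (0.39, adjusted p = 0.00038), neither with overlap. Mrps33, of the small subunit, had the most negative value (5.69, 6.6 and 6.74 against 4.81, 4.99 and 4.72), with a log2 fold change of -0.38 and an adjusted p of 0.0056. Brain and kidney differ in their cells, and fewer cells of a type and less RNA per cell cannot be told apart in such samples. No sequencing lane held libraries of both transcriptomes, so lane and organ cannot be told apart here either.

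The bases before the members' start sites were searched for motifs of factors known for nuclear genes of mitochondria. RefSeq promoters (GRCm38.p6, 250 bases before to 50 after the start) were given for 67 of the 76. The NRF1 motif, read as GCGCA, then any base, then GCGC, on either strand, was in 12 of the 67 (17.9%) and in 5.2% of 27025 genes. The ETS motif CCGGAAG was in 24 (35.8%, against 9.9%) and the YY1 motif AAGATGGC in 12 (17.9%, against 3.2%), and 41 had at least 1 of the 3 (61.2%, against 16.4%). A match is a string of letters and not a site shown to be bound. The 27025 genes were not chosen by expression or by type of promoter, while 75 of the 76 members had a mean RPKM of at least 1. Whether the gap is particular to this set, or shared by expressed genes at large, was not tested. The 200 bases before the RefSeq gene starts of Mrps21 (chr3:95871515-95871714, minus strand) and Mrpl12 (chr11:120484437-120484636, plus strand) are shown as examples from members named above, with the NRF1 motif in capitals, at -91 to -82 and -81 to -72 from the start. For Mrps21 this start lies upstream of the 2-exon model given above.
Mrps21 promoter: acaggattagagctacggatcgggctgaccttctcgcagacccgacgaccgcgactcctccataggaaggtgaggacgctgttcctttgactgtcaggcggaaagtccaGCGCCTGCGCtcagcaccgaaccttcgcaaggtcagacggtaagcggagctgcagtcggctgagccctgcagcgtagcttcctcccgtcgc
Mrpl12 promoter: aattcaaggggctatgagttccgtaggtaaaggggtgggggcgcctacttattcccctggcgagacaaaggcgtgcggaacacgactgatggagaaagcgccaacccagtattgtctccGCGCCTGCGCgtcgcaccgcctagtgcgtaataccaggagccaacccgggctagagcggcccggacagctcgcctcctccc

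**Figure D4:**
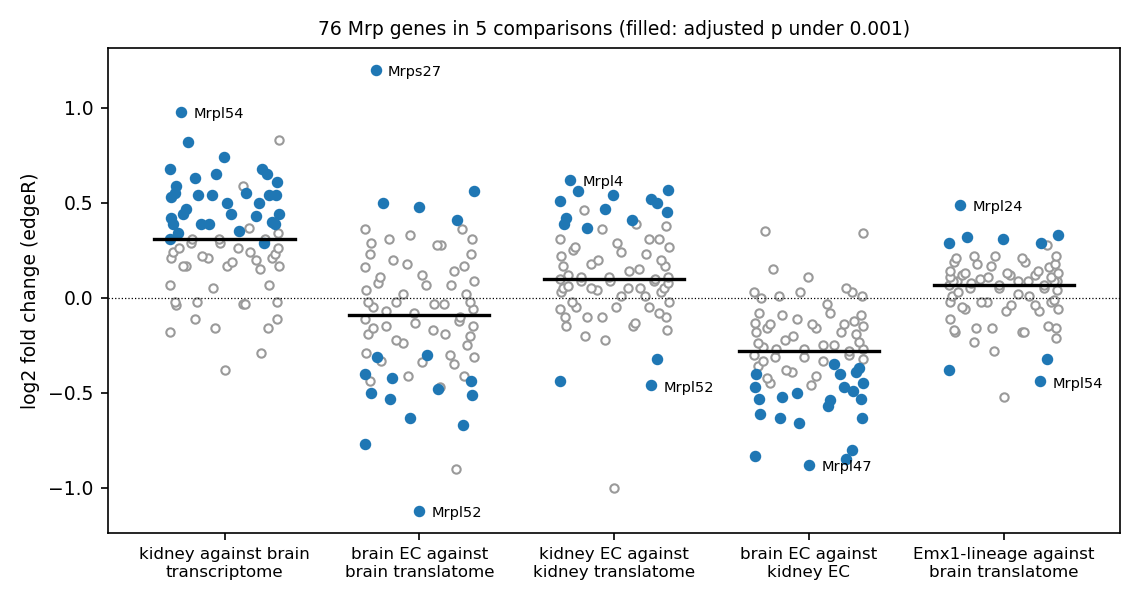
Log2 fold change (y axis) of each of the 76 members in 5 comparisons (x axis), with filled points for members called at an adjusted p under 0.001 and a black line at the median. The members shift upwards in the kidney against the brain transcriptome (median 0.31) and downwards in brain EC against kidney EC (median -0.28). They scatter around 0 in the comparisons of cell types with their organ (medians -0.09 in brain EC, 0.10 in kidney EC and 0.07 in the Emx1-lineage).

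The endothelial translatomes were compared with those of the whole organ. In brain EC 5 members were higher and 13 lower than in the brain translatome, where 24.8% of 19103 rows were higher and 21.4% lower. Members had a median log2 fold change of -0.09 (quartiles -0.32 and 0.15), against -0.01 over all rows, and brain EC libraries lay above all translatome libraries for 22 members and below for 32 (34.7% and 33.0% of all rows). The shares called, 6.58% higher and 17.1% lower, were below those of all rows. Of the lower calls, 11 were of the large and 2 of the small subunit. With library totals 1 member was higher and 37 lower (median -0.38), while the median of all mRNAs moved to -0.26. The members stood 0.13 below the mRNA median (a difference of -0.13, which the scaling cannot change), but 0.09 above mRNAs of like length (47 of 75).

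Mrpl52 fell most: it was at 228, 217 and 231 in the brain translatome and 104, 101 and 108 in brain EC, with a wide gap (log2 fold change -1.12, SE 0.06, adjusted p = 4.9e-09, 2.17-fold lower). Mrps33 was at 14.9, 14.4 and 14.9 against 8.64, 9.22 and 8.13 (-0.77, SE 0.10, adjusted p = 8.9e-06), and Mrps23, another small subunit protein found only in mitochondria, at 54.0, 52.0 and 55.1 against 33.4, 35.0 and 33.7 (-0.67, SE 0.07, adjusted p = 1.1e-06). Neither had overlapping libraries. Mrps27 went the other way, at 13.0, 13.2 and 11.7 in the brain translatome and 31.1, 25.2 and 31.0 in brain EC, again far apart (log2 fold change 1.20, SE 0.10, adjusted p = 1.3e-07, 2.29-fold higher). 22.6% of its exon bases are shared with 6430562O15Rik on the other strand. Mrps28, a small subunit protein with a bacterial counterpart, was at 27.3, 28 and 24.9 against 42.3, 37.5 and 39.1 (0.56, SE 0.08, adjusted p = 5.2e-05), and Mrpl17 at 13.7, 13.9 and 11.5 against 20.2, 18.4 and 16.9 (0.50, SE 0.09, adjusted p = 0.00021). Mrpl15 was at 18.0, 17.0 and 18.1 against 20.7, 19.7 and 20.4, above without overlap but not called (0.18, adjusted p = 0.033). The number of higher calls was 3 without brain EC 1, brain translatome 1 or brain translatome 2 and 2 without brain translatome 3, and that of lower calls was 8 without brain translatome 1.

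In kidney EC 13 members were higher and 3 lower than in the kidney translatome, where 16.7% of 18940 rows were higher and 15.0% lower, so the share called higher (17.1%) was close to that of all rows. The median log2 fold change was 0.10 (quartiles -0.03 and 0.31) against -0.04 over all rows, and libraries lay above for 30 members and below for 9 (29.6% and 32.1% of all rows). With library totals the median turned to -0.27, with 0 higher and 18 lower, and the median of all mRNAs to -0.32, so the direction of the set as a whole depends on the scaling. The members stood 0.05 above the mRNA median, a difference the scaling cannot change, and 0.18 above mRNAs of like length (61 of 75). Mrpl4, a large subunit protein with a bacterial counterpart, was at 30.8, 32.9 and 35.4 in the kidney translatome and 50.7, 54.0 and 46.6 in kidney EC (0.62, SE 0.08, adjusted p = 4.4e-05). Mrpl15 was at 15.0, 17.3 and 17.1 against 22.8, 24.3 and 23.1 (0.57, SE 0.07, adjusted p = 3.9e-05), and Mrpl16, also with a bacterial counterpart, at 20.2, 22.2 and 25.6 against 33.2, 34.3 and 31.4 (0.56, SE 0.09, adjusted p = 0.00041). The groups of these 3 genes did not overlap. Mrpl52 was again lower, at 158, 157 and 167 against 116, 119 and 110 (-0.46, SE 0.06, adjusted p = 8.3e-05). Mrps21 was at 112, 123 and 111 against 90.5, 80.1 and 81.6 (-0.44, SE 0.07, adjusted p = 0.00041), and Mrpl42, found only in mitochondria, at 83.4, 82.5 and 85.3 against 67.8, 64.7 and 66.5 (-0.32, SE 0.06, adjusted p = 0.00095), each without overlap. The 13 higher calls were 4 without kidney EC 1, kidney translatome 1 or kidney translatome 3, 6 without kidney EC 2 and 7 without kidney translatome 2. The 3 lower calls were 1 without kidney EC 2 or 3 or any kidney translatome library.

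A direct test of the difference between the organs (kidney minus brain of the EC to translatome ratio), added after the values were seen, called 8 members higher and 1 lower (8.6% and 16.5% of 19764 rows), with a median of 0.22 against -0.15 over all rows. Of other mRNAs weighted to the members' lengths, 13.5% were called higher and 18.4% lower, against 10.7% and 1.33% of the members. Mrpl52, lower in EC of both organs, was less so in kidney (0.63, SE 0.08, adjusted p = 1e-05). Mrps33 (0.67, SE 0.13, adjusted p = 0.00048) was at 8.88, 9.99 and 9.08 in the kidney translatome and 8.76, 8.74 and 8.7 in kidney EC, all 3 EC values below. The 1 called lower was Mrps27 (-0.72, SE 0.14, adjusted p = 0.00051), which was at 22.4, 22.3 and 20.9 in the kidney translatome and 33.4, 32.2 and 26.3 in kidney EC. Its EC libraries were thus above in both organs, by more in brain. This call was lost without kidney translatome 1 or 2, brain EC 1 or 3, or brain translatome 1 or 3, and with relative log expression factors. The higher calls were 4 without kidney EC 1 or 2, kidney translatome 1 or brain EC 1, 5 without brain EC 3 or brain translatome 2, and 2 without brain translatome 1.

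Set against each other, brain EC had 0 members higher and 23 lower than kidney EC, where 20.1% of 19238 rows were higher and 16.9% lower. The median log2 fold change was -0.28 (quartiles -0.45 and -0.14) against 0.01 over all rows, above 0 for 11 members. At an unadjusted p under 0.05, 2 were higher by edgeR, and DESeq2 called 1. Brain EC libraries lay above all kidney EC libraries for 7 and below for 38 members (37.8% and 27.2% of all rows). Relative to mRNAs of like length the median was -0.26, with 68 of 75 members below, and 30.7% were called lower against 18.3% of other mRNAs weighted to the members' lengths. 19 of 49 large subunit genes were lower (median -0.35) and 4 of 26 small subunit genes (median -0.18). The scaled RPKM set brain EC higher against kidney EC than this fit of 6 libraries does, with a median over mRNAs of 0.09 against -0.02 on the log2 scale, so that ratios of these values lie above the fitted fold changes. Mrpl12 was at 95.1, 93.4 and 99.0 in brain EC and 159, 166 and 151 in kidney EC, with no overlap (-0.83, SE 0.06, adjusted p = 9.8e-07, 1.78-fold lower in the fit). Mrpl47, a large subunit protein with a bacterial counterpart, was at 14.2, 15.5 and 14.4 against 26.7, 24.8 and 24.1 (-0.88, SE 0.09, adjusted p = 1e-05), and Mrps18b at 12.7, 10.6 and 11.5 against 19.2, 20.0 and 19.2 (-0.85, SE 0.10, adjusted p = 2.3e-05), both well apart. Other genes overlap 15.2% of the exon bases of Mrpl12 (Gm16755), 18.1% of those of Mrpl47 (Actl6a and Ndufb5) and 59.1% of those of Mrps18b (Gm16279). Pericyte markers, summed over 3 genes, were at 18.2 to 22.1 RPKM in brain EC and 80.7 to 93.0 in kidney EC, and the part of such other cells in these values was not tested. Same-numbered libraries of the groups deviated together, and with the replicate number as a block 20 were lower, 19 of them among the 23. Among those lost were Mrpl16 (-0.40), Mrpl4 (-0.39) and Mrpl42 (-0.37). The count was 15 without brain EC 3 or kidney EC 2 and 14 without kidney EC 1, and the median was -0.16 in a fit of all 21 libraries.

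**Figure D5:**
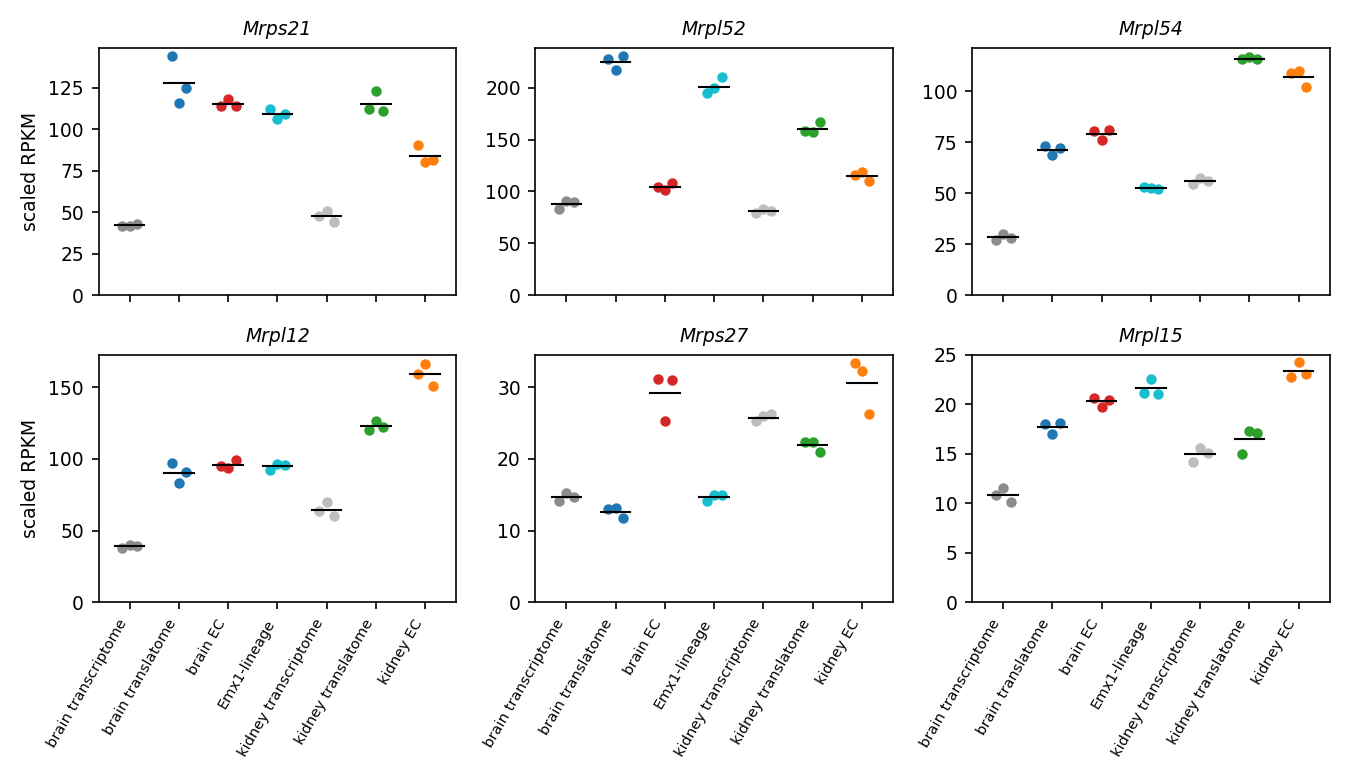
Scaled RPKM (y axis) of Mrps21, Mrpl52, Mrpl54, Mrpl12, Mrps27 and Mrpl15 in each library (points) of the 7 groups (x axis), with a line at the mean of 3. Mrpl52 falls from the translatome to EC in both organs, Mrps27 rises, and Mrpl12 is highest in kidney EC (151 to 166).

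Mrps18a, Mrps18b and Mrps18c descend from 1 bacterial small subunit protein, and the first and second of them were called lower in brain EC than in kidney EC. The protein of Mrps18a sits in the large subunit, and its mRNA was at 44.7, 50.3 and 44.3 in brain EC and 67.3, 73.5 and 64.3 in kidney EC (-0.66, adjusted p = 3.2e-05), without overlap. Mrps18c, looked at after its values were seen, was at 48.6, 47.6 and 42.6 against 44.0, 42.4 and 42.7, overlapping, with a log2 fold change of 0.00 (SE 0.09, adjusted p = 1.0). Gm43511, annotated on the same strand, overlaps 27.3% of the exon bases of Mrps18c. No test compared the 3 genes with each other.

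The Emx1-lineage was closest to its reference. 6 members were higher and 3 lower than in the brain translatome, where 9.2% of 19006 rows were higher and 12.8% lower. Their median log2 fold change was 0.07 (quartiles -0.06 and 0.14) against 0.00 over all rows, and 0.05 relative to mRNAs of like length (46 of 75 above). Libraries lay above for 29 members and below for 19 (26.6% and 26.8% of all rows). Mrpl24, a large subunit protein with a bacterial counterpart, was at 61.9, 52.6 and 57.3 in the brain translatome and 78.4, 82.2 and 80.0 in the Emx1-lineage, without overlap (0.49, SE 0.06, adjusted p = 1.8e-05). 48.5% of its exon bases overlap Rrnad1 on the other strand. Mrpl45, which ties the ribosome to the inner membrane, was at 15.6, 16.0 and 15.3 against 20.1, 19.3 and 19.2 (0.33, SE 0.05, adjusted p = 0.00013), and Mrpl19 at 10.4, 10.0 and 9.82 against 12.3, 13.1 and 12.1 (0.32, SE 0.05, adjusted p = 0.00026), both apart. Gcfc2 on the other strand overlaps 39.2% of the exon bases of Mrpl19. Mrpl54 fell, from 73.3, 68.8 and 72.4 to 53.1, 52.5 and 51.9 (-0.44, SE 0.05, adjusted p = 1.2e-05), as did Mrps18a, from 62.5, 67.5 and 62.6 to 49.1, 48.4 and 49.6 (-0.38, SE 0.05, adjusted p = 3.1e-05), and Mrpl14, from 66.4, 68.0 and 66.9 to 54.5, 54.7 and 52.1 (-0.32, SE 0.05, adjusted p = 0.00024). None of these 3 had overlapping groups. Tmem63b on the other strand overlaps 16.4% of the exon bases of Mrpl14. The 6 higher calls were 1 without Emx1-lineage 1, 2 without Emx1-lineage 2, and 3 without Emx1-lineage 3, brain translatome 2 or brain translatome 3. Brain EC and the Emx1-lineage share the brain translatome as their reference, kidney EC and the kidney transcriptome share the kidney translatome, and the transcriptomes of both organs recur in 2 comparisons each, so these sets of values are not independent of each other.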

How the data were processed

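Ribosome-bound RNA (translating ribosome affinity purification) and total RNA of 21 samples in 7 groups of 3, mapped to groups by their labels, were analysed. The deposited counts are raw reads per RefSeq gene: the authors prepared unstranded TruSeq libraries, mapped the reads with RUM to GRCm38 and counted them with rpkmforgenes on the refGene annotation. The deposited RPKM values were computed by the authors with the same program, per kilobase and scaled to library size. From 21760652 to 79231692 reads per library were counted. The members, lists and tests were chosen with earlier results of these data known.

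Counts were tested with edgeR 4.0.16 (R 4.3.3; TMM, glmQLFit, glmQLFTest) in 7 comparisons of 3 with 3 libraries, and the organ differences as interactions over 12, on all rows with at least 1 count. P-values were adjusted over all rows (Benjamini-Hochberg), with calls at an adjusted p under 0.001, and the SE of a log2 fold change was derived from its size and F statistic. Replicates were separate tissue samples. Same-numbered transcriptome and translatome libraries came from the same tissue sample per the study's sample list, and their deviations from the group means correlated (0.45, 0.35 and 0.69 in brain, 0.63, 0.48 and 0.57 in kidney). Those of brain EC and kidney EC also did (0.42, 0.20 and 0.18), from the data alone. Length is the ratio of reads to RPKM, scaled. Members with a mean RPKM of at least 1 were set beside other mRNAs in 5 length classes, with no test. The named genes are Mrpl15, the 3 called members with the largest change each way in each comparison (mean RPKM of at least 1, groups not overlapping), the 3 highest and 3 lowest in level, the 3 members with the largest change each way in the organ difference (the others called there are named too), and from each pathway list the 2 with the largest called change in each translatome comparison. For members named by their change between 2 groups, the lack of overlap thus follows from the choice and adds no support. Mrps2, Mrps5, Mrpl38, Mrps18c and the other genes outside this rule were named after their values were seen.

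The edgeR fit was also run on simulated counts with known changes, modelled on the brain translatome against transcriptome and on the Emx1-lineage against the brain translatome. Of 100 changes of 0.5 on the log2 scale it found 69 and 67, and of 100 changes of 1.0 it found 93 and 95. Rows without a change were called 12 times among 19142 rows and 21 times among 18694. Alternatives tried were library totals or relative log expression factors as scaling, DESeq2 1.42.0, at least 10 counts in 3 samples, a replicate block, a single fit of all libraries, an adjusted p under 0.05 and each library left out in turn. Python 3.11.15, pandas 2.3.3, numpy 2.4.6 and matplotlib 3.10.9 were used for the rest.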

Additional observations from a re-analysis of the deposited data

Results flagged for a closer look

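The translatome to transcriptome ratio differed between the organs by the interaction test in 7 members, as the log2 difference kidney minus brain: Mrpl40 (-0.56), Mrpl15 (-0.55), Mrps34 (-0.54), Mrps22 (-0.52), Mrpl3 (-0.50), Mrpl28 (-0.48) and Mrpl34 (-0.41). These calls, all lower, were 9.21% of the members, against 2.35% of all rows. The ratio of endothelial to whole-organ translatome differed in 9 members by the interaction test, in the same direction of subtraction: Mrps27 (-0.72), Mrpl34 (0.45), Mrps23 (0.47), Mrpl20 (0.53), Mrps18a (0.56), Mrps6 (0.62), Mrpl52 (0.63), Mrps33 (0.67) and Mrpl47 (0.77). Of the members, 10.5% were thus called higher and 1.32% lower, against 8.6% and 16.5% of all rows. With 3 replicates a group, no search for single outlying samples was made.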

How the results depend on the processing

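The rise of the members in both translatomes kept its direction in every alternative run: without single libraries 58 to 61 members were higher in brain (median 0.80 to 0.86) and 42 to 49 in kidney (median 0.47 to 0.54). The median of kidney EC against the kidney translatome reversed, from 0.10 to -0.27, with library totals, where 0 were higher and 18 lower. Library totals also gave brain EC 1 higher and 37 lower (median -0.38), the Emx1-lineage 2 higher and 5 lower (median 0.02), the kidney against the brain transcriptome 52 higher (median 0.49), a median of -0.31 for brain EC against kidney EC, and 4 lower in the organ difference of translatome over transcriptome. The cause of the other moves was not tested. At an adjusted p under 0.05 the counts (higher and lower) were 5 lower in the kidney translatome, 55 and 3 in the kidney against the brain transcriptome, 17 and 29 in brain EC, 29 and 5 in kidney EC, 18 and 13 in the Emx1-lineage, 2 and 46 in brain EC against kidney EC, 1 and 46 in the organ difference of translatome over transcriptome, and 31 and 5 in that of EC over translatome. DESeq2 gave 1 lower in the kidney translatome, 1 lower in the kidney transcriptome, 10 higher in brain EC, 20 higher in kidney EC, 5 lower in the Emx1-lineage, 1 higher in brain EC against kidney EC, 23 lower in the organ difference of translatome over transcriptome and 25 higher in that of EC over translatome. In these organ differences its calls over all rows rose too, from 472 to 1107 lower in the first and from 1700 to 2724 higher in the second. For the organ difference of EC over translatome (8 higher and 1 lower), relative log expression factors gave 17 and 0, library totals 5 and 1, and the single fit of 21 samples 15 and 2. The single fit gave 1 lower in the kidney translatome, 2 lower in the kidney transcriptome, 10 higher and 22 lower in brain EC, and 2 higher (Mrps11 and Mrps21) with a median of -0.16 in brain EC against kidney EC. With the replicate block, 5 were lower in the kidney translatome, 31 in the organ difference of translatome over transcriptome and 1 in kidney EC, and 1 was higher in the Emx1-lineage and 3 in the organ difference of EC over translatome. Over all rows the block also raised the lower calls, from 3049 to 4860 in the kidney translatome and from 472 to 1467 in the organ difference of translatome over transcriptome. In kidney EC and the Emx1-lineage the libraries share only a number with their reference. The block moved no other count by over 1.5 times. At least 10 counts in 3 samples left 3 higher in the Emx1-lineage. The difference from mRNAs of like length was 0.14 in the brain translatome with other mRNAs within 10% of the length, and with a mean RPKM of at least 5 it was 0.05 in brain EC and -0.23 in brain EC against kidney EC. Without single libraries the ranges were 28 to 34 higher in the kidney transcriptome (median 0.30 to 0.35, like length 0.19 to 0.22), 2 to 5 higher and 8 to 13 lower in brain EC (median -0.11 to -0.06), 4 to 15 higher and 1 to 2 lower in kidney EC, 1 to 5 higher and 2 to 4 lower in the Emx1-lineage, 14 to 21 lower in brain EC against kidney EC (median -0.31 to -0.25, like length -0.26 to -0.24), 0 to 5 lower in the organ difference of translatome over transcriptome, and 2 to 8 higher and 0 to 1 lower in that of EC over translatome. With 3 libraries a group, small changes can be missed.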
